A study of Mus musculus with 32 samples.

Results

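The features described here are the 182 of 56459 in a table of ribosome-associated RNA that stood highest in the Grik population of the mouse hippocampus. They were chosen by their level in CPM (a feature's count over the library's total, times 1000000). Each had at least 1 CPM in all 4 Grik libraries and a Grik mean at least 2 times the mean of each of the other 7 groups. The values that chose them are therefore the Grik values themselves, so every comparison with Grik below is a description without a test. The features carry identifiers and no gene names, so marker genes could not be used to check the label of the population, and no known function can be given for any single feature.

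The study sequenced RNA labelled as ribosome-associated from neuron populations of 2 regions, in 32 libraries that form 8 groups of 4. Cortical libraries came from the populations titled CamK, Scnn, PV, SST and VIP, and hippocampal libraries from those titled CamK, Grik and SST. All libraries are labelled WT for genotype, and the labels give no driver line, ribosome tag, age or number of animals per library. Replicate numbers are those of the titles, and nothing says that replicates came from separate animals, so the p-values below measure only the spread between these libraries, which may be technical.

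Ribosome-associated RNA is usually obtained by tagging a ribosomal protein in the cells marked by a Cre driver and pulling the tagged ribosomes out of a tissue lysate. The RNA that comes with them approximates what those cells are translating, with some carry-over from other cells of the lysate. By general knowledge and not by the labels, Grik stands for a driver built on Grik4, a kainate-type glutamate receptor subunit concentrated in the pyramidal cells of hippocampal area CA3. Those cells receive the mossy fibres of the dentate gyrus, excite one another through recurrent connections, and project to area CA1. CamK and Scnn are likewise taken as excitatory populations, CamK spanning pyramidal cells of a whole region and Scnn enriched in cortical layer 4. PV, SST and VIP name 3 kinds of inhibitory interneuron. A CamK library of the hippocampus could thus hold RNA of CA3 cells as well, whereas interneuron and cortical populations should not.

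Counts summed to between 100158438 and 114153919 per library, apart from SST hippocampus replicate 1 at 186505391. The titles form 2 series, with plain numbers for CamK, Scnn, PV and SST of the cortex and numbers after a W for VIP cortex and all hippocampal groups. The labels do not say what the W means. Within CamK and within SST, the region goes with the title series and the 2 cannot be told apart.

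The 182 features together made up 1.01% ± 0.034 (SD, n = 4) of the counts in Grik hippocampus. Replicates 3, 4, 5 and 6 held 1.04%, 1.02%, 1.03% and 0.961%. CamK hippocampus came next at 0.386% ± 0.040 (SD, n = 4), with 0.432%, 0.396%, 0.336% and 0.381% in replicates 2 to 5. All Grik libraries stood above all CamK hippocampus libraries, which in turn stood above the 24 libraries of the other groups. CamK cortex held 0.261% ± 0.0077, Scnn cortex 0.215% ± 0.014 and VIP cortex 0.178% ± 0.0053 (SD, n = 4 each). SST hippocampus held 0.168% ± 0.0082 and SST cortex 0.134% ± 0.0062 (SD, n = 4 each). PV cortex was lowest at 0.102% ± 0.014 (SD, n = 4), of which replicate 1 held 0.122% and the other libraries 0.0936% to 0.0963%. In this order the libraries of neighbouring groups overlapped between VIP cortex and SST hippocampus, and all other neighbours were separate.

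**Figure D1:**
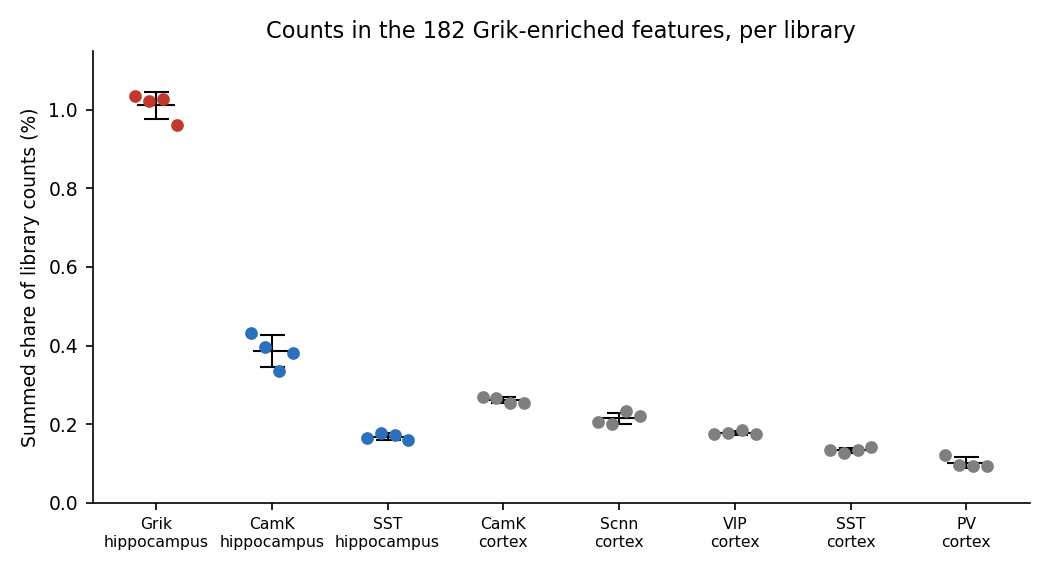
Summed share of each library's counts (percent, vertical axis) taken by the 182 Grik-enriched features, by group along the horizontal axis. Each point is 1 library and the bars give the mean ± SD of 4 libraries. The Grik libraries lie between 0.961% and 1.04%, above all others.

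The ratio of the Grik mean to the mean of the next highest group had a median of 2.93, with quartiles of 2.29 and 4.49. It was under 3 for 95 members and at least 5 for 34. Just inside the rule lay members with ratios of 2.004 (3.35 against 1.67 CPM), 2.01 (506 against 252 CPM) and 2.02 (52.8 against 26.2 CPM). Just outside lay features with ratios of 1.99 (1.94 against 0.972 CPM), 1.99 (3.53 against 1.77 CPM) and 1.98 (99.3 against 50.0 CPM). In 179 of the 182 the lowest Grik library was above the highest of the 28 other libraries, an arrangement found in 2.78% of the 24555 features tested. Because the rule used this contrast, nothing is read from that count. By the same rule, applied to each group in turn, 812 features stood out for VIP cortex, 333 for PV cortex, 152 for Scnn cortex and 98 for CamK cortex. The rule gave 90 for SST cortex, 80 for CamK hippocampus and 61 for SST hippocampus.

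Members ranged over 3 orders of magnitude in level. Grik means ran from 1.28 to 1445 CPM with a median of 9.999 CPM. The 28 members at 100 CPM or more contrast with 56 members under 5 CPM. The most abundant member alone gave 14.3% of the members' summed Grik CPM, and the top 10 gave 45.7%. Per kilobase of the deposited feature length, the median member stood at 7.94 CPM per kb in Grik, against 14.7 CPM per kb over all 13087 features that had 1 CPM in every Grik library. Members had a median length of 1665 bases, against 1442 bases in that larger set. The coefficient of variation over the Grik libraries had a median of 11.96% among members and 9.92% in the larger set, and 13 members reached 25% or more.

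The members formed a range from features near the limit of detection elsewhere to features present everywhere. At one end, 43 members had a mean under 1 CPM in every other group. These were scarce in Grik too, with a median Grik mean of 2.50 CPM and a highest of 22.1 CPM, and their median ratio to the next group was 4.70. At the other end, 53 members reached 1 CPM in all 7 other groups. Their median Grik mean was 101 CPM and their median ratio 2.37, with a range of 2.01 to 6.16. The remaining 86 members reached 1 CPM in 1 to 6 other groups. The ratio and the level were both part of the rule, so this split describes the set only.

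GSMG0001554 and GSMG0024735 had the largest ratios among members with at least 5 CPM in Grik. GSMG0001554 read 25.9, 21.3, 20.8 and 20.5 CPM in Grik replicates 3, 4, 5 and 6. All 28 other libraries lay at or below 0.512 CPM, and the next group was CamK cortex at 0.340 ± 0.118 CPM (SD, n = 4), a ratio of 65.0. In CamK hippocampus it read 0.180, 0.134, 0.0996 and 0.182 CPM, or 0.672% of the Grik mean. For GSMG0001554 every CamK hippocampus library lay below every CamK cortex library, unlike most members. GSMG0024735 read 10.1, 7.58, 7.85 and 8.40 CPM in Grik. It read 1.20, 0.850, 0.416 and 0.993 CPM in CamK hippocampus, a ratio of the means of 9.82. In the 5 cortical groups GSMG0024735 stood under 0.5 CPM in every library, and no library outside Grik came near the Grik range.

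GSMG0026199 and GSMG0006769 were the most abundant members. GSMG0026199 read 1482, 1469, 1418 and 1410 CPM in Grik, with a mean of 468 CPM per kb. CamK cortex and CamK hippocampus stood level with each other at 683 ± 19.1 and 682 ± 82.7 CPM (SD, n = 4 each), so this feature separated Grik from CamK but not the CamK libraries by region. It was lower in the interneuron libraries, at 186 ± 7.30 CPM in SST cortex and 150 ± 12.4 CPM in SST hippocampus (SD, n = 4 each). In PV cortex GSMG0026199 read 183 CPM in replicate 1 and 75.5 to 85.8 CPM in the others. GSMG0006769 read 509, 573, 539 and 405 CPM in Grik, with a mean of 374 CPM per kb. Its CamK hippocampus libraries read 266, 268, 229 and 243 CPM, all below the Grik libraries and overlapping with those of Scnn cortex, at 175 to 252 CPM.

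**Figure D2:**
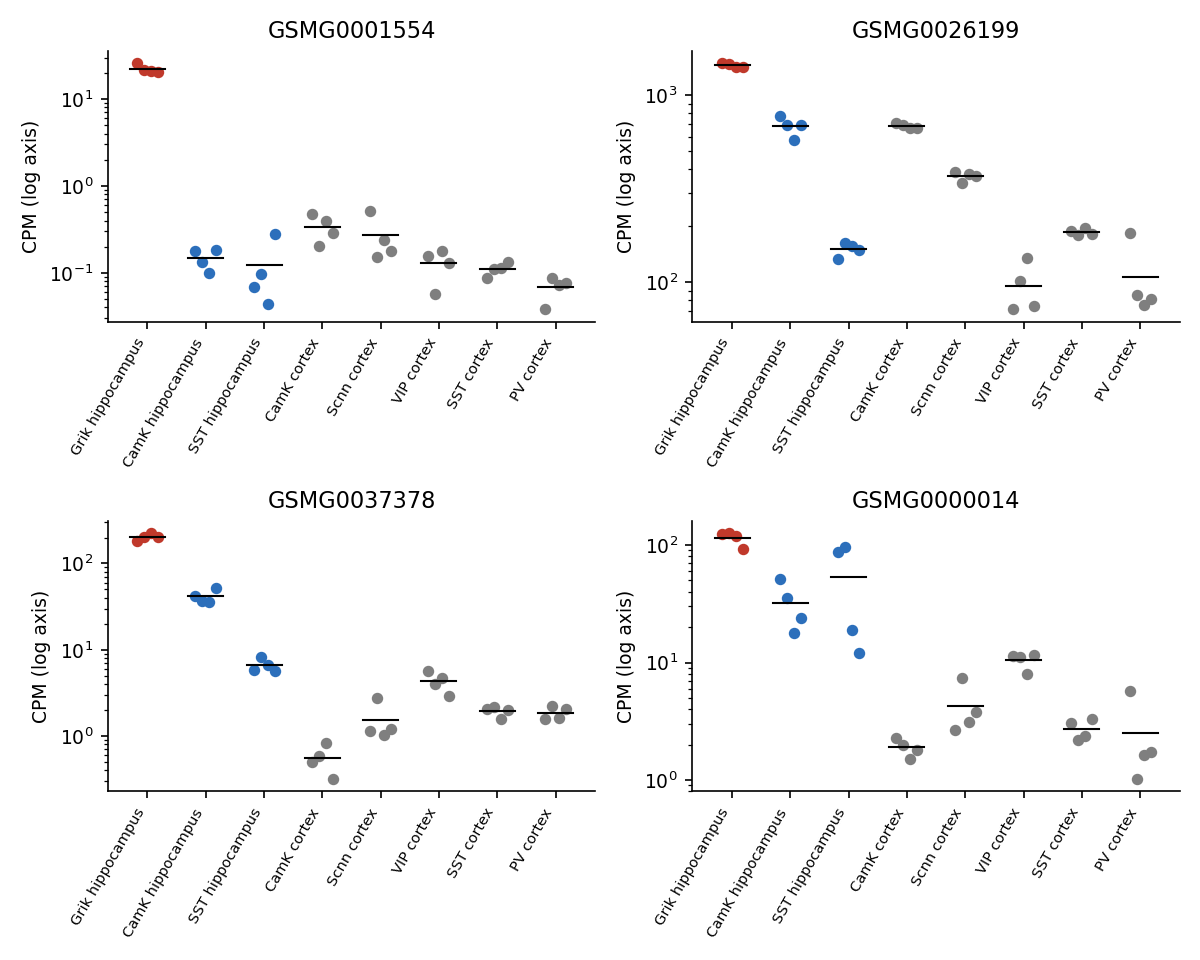
Level of 4 members in each library (CPM, vertical axis, log scale), by group along the horizontal axis; each point is 1 library and each line a group mean. Grik libraries lie above all others except for GSMG0000014, where SST hippocampus reached 96.9 CPM and the lowest Grik library 92.3 CPM.

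CamK hippocampus was the group nearest to Grik for most members. It was the next highest group for 100 members, followed by VIP cortex for 27, CamK cortex for 23, SST hippocampus for 13, Scnn cortex for 9, PV cortex for 7 and SST cortex for 3. How often each group comes next among features outside the set was not counted, so this order describes the members only. With each member's Grik mean set to 100%, its CamK hippocampus level had a median of 24.4% and quartiles of 15.8% and 38.7%. Only 2 members were under 5% in CamK hippocampus. The medians elsewhere were 14.5% in VIP cortex, 10.7% in CamK cortex, 10.6% in SST hippocampus, 9.14% in Scnn cortex, 5.18% in SST cortex and 3.63% in PV cortex. In PV cortex 105 members were under 5% of their Grik level. Since these are bulk libraries, fewer cells that carry a transcript and less of it per cell cannot be told apart.

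**Figure D3:**
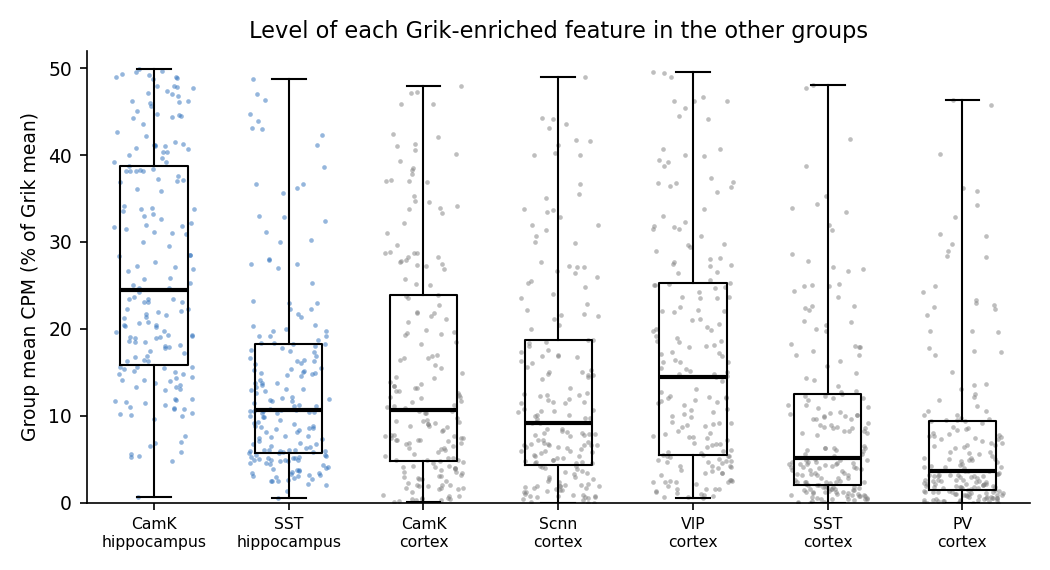
Level of the 182 members in each other group as percent of the member's Grik mean (vertical axis); each point is 1 member, boxes give quartiles and median, whiskers the full range, and the groups run along the horizontal axis. The medians fall from 24.4% in CamK hippocampus to 3.63% in PV cortex, and the rule keeps every point at or under 50%.

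How the members behaved among the 28 libraries that are not Grik was then tested, in contrasts without any Grik library. A feature was called where edgeR's quasi-likelihood test passed 0.05 after Benjamini-Hochberg adjustment over the 24555 features tested and the change was 2-fold or more. All 182 members were tested, but their Grik level carries them past the filter on low counts, so each count is also given for those whose mean reached 1 CPM in any group compared. Members were called more often than all features in each of the 9 contrasts that follow, so the direction of the calls is given beside their number.

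In the CamK libraries the members were mostly higher in the hippocampus. Of the 182, 89 (48.9%) were higher than in the cortex and 9 (4.95%) lower, where all features tested had 5.43% higher and 8.46% lower. The median log2 fold change of the members was 1.01 and that of all features -0.003. Among the 129 members at 1 CPM or more on either side, 71 (55.0%) were called, 64 higher and 7 lower, against 14.3% of all such features. The median log2 fold change of those 129 was 0.997. GSMG0037378 read 41.9, 36.6, 35.3 and 52.7 CPM in CamK hippocampus and 0.506, 0.591, 0.824 and 0.317 CPM in CamK cortex. The lowest hippocampal library was far above the highest cortical one, with a log2 fold change of 6.17 (SE 0.30, adjusted p = 2.64e-15 by edgeR). GSMG0037379, whose identifier is the next number, read 1.71, 1.43, 1.24 and 1.71 CPM in CamK hippocampus. In CamK cortex it read 0, 0.0508, 0.0141 and 0.040 CPM (log2 fold change 5.90, SE 0.57, adjusted p = 4.79e-10 by edgeR). With cortical levels near 0, the size of this fold is uncertain. In the opposite direction, GSMG0037292 read 0.546, 0.302, 0.0451 and 0.527 CPM in CamK hippocampus and 1.59, 1.06, 1.02 and 1.07 CPM in CamK cortex, and fell by 1.81 on the log2 scale (SE 0.38, adjusted p = 0.000328 by edgeR). GSMG0028886 was lower by a log2 fold change of -1.72 (SE 0.43, adjusted p = 0.00196 by edgeR), at 0.427 ± 0.122 against 1.37 ± 0.518 CPM (SD, n = 4 each).

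The same direction held in the SST libraries, an interneuron population sampled in both regions. Of the members, 74 (40.7%) were higher in SST hippocampus than in SST cortex and 4 (2.20%) lower, against 3.92% and 3.54% of all features tested. The median log2 fold change was 0.95 for members and 0.02 for all features. Among the 90 members at 1 CPM or more on either side, 39 (43.3%) were called, 36 higher and 3 lower, against 7.37% of all such features. The median log2 fold change of those 90 was smaller than over all members, at 0.70. GSMG0000014 read 86.7, 96.9, 18.9 and 12.1 CPM in SST hippocampus replicates 1, 2, 3 and 5 and 3.07, 2.17, 2.39 and 3.32 CPM in SST cortex (log2 fold change 4.31, SE 0.60, adjusted p = 7.06e-06 by edgeR). Replicates 1 and 2 were several times higher than replicates 3 and 5, yet all 4 were above the cortical libraries. In Grik this feature read 125, 127, 119 and 92.3 CPM, so its highest SST library was above its lowest Grik library. GSMG0008294 read 1.71, 2.80, 0.976 and 0.929 CPM in SST hippocampus and 0.0948, 0.161, 0.0730 and 0.134 CPM in SST cortex, without overlap (log2 fold change 3.79, SE 0.35, adjusted p = 1.68e-09 by edgeR). Of the 4 lower members, GSMG0010937 read 2.11, 2.76, 2.96 and 2.06 CPM in SST hippocampus and 7.83, 5.76, 6.19 and 6.64 CPM in SST cortex (log2 fold change -1.42, SE 0.14, adjusted p = 2.25e-09 by edgeR). GSMG0005945 had a log2 fold change of -1.19 (SE 0.34, adjusted p = 0.0101 by edgeR). Without SST hippocampus replicate 3 this was -1.025 with an edgeR adjusted p of 0.0509, the highest of 14 alternatives that ranged down to 0.00364, and the call was lost.

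The regional differences were also put on the scale of the Grik level. The rule caps every other group relative to the Grik mean, so these shares were bounded in advance and are a description. The difference between SST hippocampus and SST cortex had a median of 4.19% of the member's Grik mean, with quartiles of 1.77% and 7.38%, and it was above 0 for 155 members. In CamK the corresponding difference had a median of 11.8% and quartiles of 1.73% and 22.6%, and was above 0 for 143 members. The part that RNA carried over from Grik-type cells of the hippocampal tissue has in these differences was not tested. GSMG0001554, at 22.1 ± 2.56 CPM in Grik, read 0.122 ± 0.107 CPM in SST hippocampus and 0.112 ± 0.0196 CPM in SST cortex (SD, n = 4 each), with overlapping libraries. The SST hippocampus mean of that member was 0.554% of its Grik mean. GSMG0001554 was named for its large ratio of Grik to the next group, so a low SST level follows from that choice. Over all members the SST hippocampus level had a median of 10.6% of the Grik mean, and 1 member was under 1%.

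In these contrasts the region cannot be told apart from the title series. VIP cortex, of the W series like the hippocampal libraries, was therefore set beside SST hippocampus, a comparison chosen after the data were seen that differs in population as well as region. Against VIP cortex, 32 members (17.6%) were higher in SST hippocampus and 30 (16.5%) lower, where all features tested had 5.92% higher and 16.2% lower. The median log2 fold change of the members was 0.06, and -0.13 for all features. The members' median turned to -0.02 with relative log expression scaling in edgeR, so it had no stable direction. Among the 110 members at 1 CPM or more on either side, 19 (17.3%) were higher and 26 (23.6%) lower, so 45 (40.9%) were called, against 22.8% of all such features (6.82% higher, 15.9% lower). At that level the members' median was -0.14, against 0.05 for all such features, so the members' median kept no direction over both ways of counting. Beside all features, the members' share called higher in SST hippocampus was larger in both ways of counting. Their share called lower was near that of all features over the whole set, and larger at 1 CPM or more.

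Of the members, 50 were higher in the hippocampus in both CamK and SST, which is 56.2% of the CamK list and 67.6% of the SST list. They are 27.5% of the members, and features higher in both are 1.2% of all features tested. Since low members can reach the test through their Grik level, the count was repeated over members with 1 CPM on either side of both contrasts. There 23 of 88 (26.1%) were higher in both, against 0.982% of all such features. Another 39 were called higher in CamK alone, 24 in SST alone, and 69 in neither. No member was called lower in both. The 2 contrasts share no library. VIP cortex, set against the mean of PV and SST cortex below, was also called higher for 39 of the 50 members. The same call was made for 55 of the 74 in the SST list (74.3%) and for 92 of all 182 members (50.5%). PV and SST cortex have plain titles, whereas VIP cortex has W titles like the hippocampal groups. The SST and VIP contrasts share the SST cortex libraries. Whether the 50 follow the region or the title series was not tested. Across the 182 members the log2 fold changes of CamK and SST had Pearson's r = 0.451 and Spearman's rho = 0.415, against r = 0.229 over all features tested. Members are not independent of each other, and these correlations are a description. The 50 members higher in both had medians of 17.0 CPM in Grik, 3.73 CPM in CamK hippocampus and 0.470 CPM in CamK cortex, and 0.974 CPM in SST hippocampus against 0.238 CPM in SST cortex. The 69 in neither had nearly level medians across region, at 3.11 and 2.63 CPM in CamK and 1.47 and 1.57 CPM in SST. Both lists were sorted by these same contrasts, so the regional gap in the first and its absence in the second follow from the sorting.

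**Figure D4:**
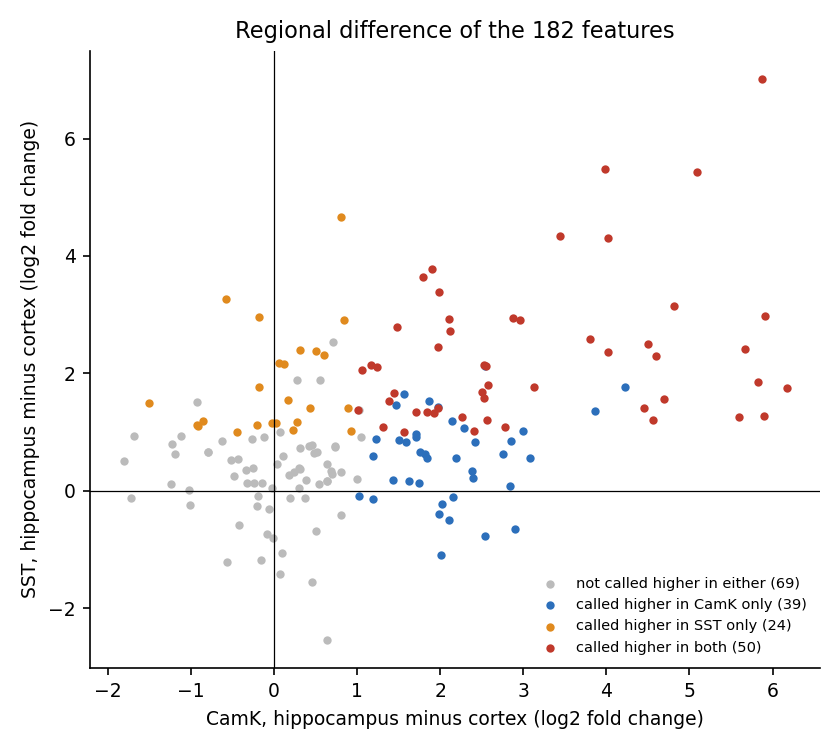
Log2 fold change between hippocampus and cortex in CamK (horizontal axis) and in SST (vertical axis) for the 182 members, 1 point each, coloured by the contrasts in which the member was called higher in the hippocampus. The 50 members called in both lie in the upper right, and no member was called lower in both.

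Features chosen by the same rule for Scnn and PV cortex were more often called lower than higher in the hippocampus. Of the 152 features enriched in Scnn cortex, 3 (1.97%) were higher and 87 (57.2%) lower in CamK hippocampus than in CamK cortex. In SST hippocampus against SST cortex, 6 (3.95%) were higher and 41 (27.0%) lower. Of the 333 enriched in PV cortex, 19 (5.71%) were higher and 79 (23.7%) lower in CamK hippocampus. In SST hippocampus, 9 (2.70%) of them were higher and 31 (9.31%) lower. Of the 812 enriched in VIP cortex, 79 (9.73%) were higher and 114 (14.0%) lower in CamK hippocampus. In SST hippocampus, 71 (8.74%) of them were higher and 45 (5.54%) lower. Over all features tested, 5.43% were higher and 8.46% lower in CamK hippocampus, and 3.92% higher and 3.54% lower in SST hippocampus. The shares of the PV set called higher were near these. These counts are set beside each other and the sets were not tested against one another. Features of each set can reach the test through the group that chose them. Their counts were not repeated at 1 CPM in the groups compared, so nothing is read from the difference between the sets. Within the Grik set, the 43 members under 1 CPM in every other group had 22 (51.2%) higher and 2 (4.65%) lower in CamK hippocampus. In SST hippocampus they had 15 (34.9%) higher and 1 (2.33%) lower. The 53 members at 1 CPM or more everywhere had 18 (34.0%) higher and 3 (5.66%) lower in CamK hippocampus, with a median log2 fold change of 0.44. In SST hippocampus those 53 had 14 (26.4%) higher and 2 (3.77%) lower, with a median of 0.37. The 43 members pass the filter on low counts by their Grik level, whatever their level elsewhere, and nothing is read from their counts.

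The size of the regional difference nevertheless depended on the population for many members. Tested as an interaction, the SST effect was higher than the CamK effect for 27 members and lower for 34, where all features had 6.4% higher and 4.43% lower. Among the 131 members reaching 1 CPM in any group compared, 53 (40.5%) were called, against 13.4% of such features. GSMG0037378 again stood out, since its rise of 6.17 in CamK compares with SST libraries at 5.82, 8.20, 6.63 and 5.68 CPM in the hippocampus and 2.08, 2.15, 1.57 and 1.996 CPM in the cortex. Both populations were higher in the hippocampus without overlap, and the difference of the effects was -4.42 (SE 0.37, adjusted p = 5.65e-10 by edgeR). For GSMG0037379 it was -4.63 (SE 0.74, adjusted p = 1.59e-05 by edgeR), a size that is uncertain because this feature was near 0 in CamK cortex. GSMG0016259 read 1.46, 2.47, 1.75 and 0.684 CPM in SST hippocampus and at most 0.357 CPM in SST cortex, while CamK libraries read 3.89 to 9.18 CPM in the hippocampus and 6.73 to 7.37 CPM in the cortex. The regions overlapped in CamK and not in SST, and the difference of the effects was 3.14 (SE 0.50, adjusted p = 1.91e-05 by edgeR). GSMG0007834 had opposite directions in the 2 populations, with CamK libraries at 0.422 to 1.41 CPM in the hippocampus and 1.81 to 2.66 CPM in the cortex, and SST libraries at 0.139 to 0.275 CPM and 0.0226 to 0.130 CPM. Its difference of effects was 2.999 (SE 0.51, adjusted p = 4.17e-05 by edgeR). All SST libraries were near 0 for GSMG0007834, so the size of this difference is uncertain.

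Between the 2 other hippocampal populations, the members leaned to the excitatory one. Only 6 members (3.30%) were higher in SST than in CamK hippocampus and 105 (57.7%) were lower, while over all features 16.1% were higher and 10.7% lower. The median log2 fold change was -1.34 for members and 0.09 for all features, and 89 of 128 members (69.5%) at 1 CPM or more were called, against 26.4% of such features. Both groups belong to the W series, so title series does not differ here. GSMG0003756 read 0.594, 0.639, 0.390 and 0.541 CPM in SST hippocampus and 5.93, 5.72, 3.20 and 5.62 CPM in CamK hippocampus (log2 fold change -3.30, SE 0.29, adjusted p = 2.58e-11 by edgeR). GSMG0016260 had a log2 fold change of -3.13 (SE 0.30, adjusted p = 3.43e-10 by edgeR). Among the 6 exceptions, GSMG0015159 read 3.98, 3.47, 4.41 and 2.88 CPM in SST hippocampus and 0.342, 0.497, 0.341 and 0.426 CPM in CamK hippocampus, every SST library being higher (log2 fold change 3.11, SE 0.35, adjusted p = 4.36e-09 by edgeR). GSMG0015160 was likewise higher, by 2.58 (SE 0.31, adjusted p = 2.11e-08 by edgeR). Grik levels of these 2 members were 7.56 ± 1.16 and 19.97 ± 0.962 CPM (SD, n = 4 each).

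In the cortex the members also leaned to the excitatory populations when PV, SST and VIP were averaged. Set against the mean of CamK and Scnn, the mean of PV, SST and VIP was higher for 18 members (9.89%) and lower for 62 (34.1%), where all features had 13.0% higher and 11.3% lower. The median log2 fold change was -0.66 for members and 0.07 for all features, and 55 of 122 members (45.1%) at 1 CPM or more were called, against 24.1%. VIP is of the W series and the other 4 groups are not. The interneuron groups were not alike. The members' median level was 0.431 CPM in PV and 0.466 CPM in SST cortex, but 1.35 CPM in VIP cortex. It was 0.984 CPM in CamK and 0.887 CPM in Scnn cortex. These levels leave out edgeR's scaling factors, which averaged 1.19 in VIP, 0.932 in CamK and 0.996 in Scnn cortex. The gap between VIP and the excitatory groups is therefore smaller after scaling. VIP alone was not tested against the excitatory groups, so the lean is not shown for VIP. GSMG0016259 read 5.90 to 8.52 CPM in the 8 CamK and Scnn libraries and 0.0567 to 1.36 CPM in the 12 interneuron libraries, with a log2 fold change of -4.44 (SE 0.23, adjusted p = 1.22e-16 by edgeR). GSMG0007480 was at 0.857 ± 0.50 CPM (SD, n = 8) in the excitatory and 0.0490 ± 0.0478 CPM (SD, n = 12) in the interneuron libraries, with an edgeR adjusted p of 1.4e-12. It was at 0 in 3 PV libraries and 1 VIP library, so no fold is given. GSMG0012470 went the other way, with 61.2 to 140 CPM in the interneuron and 19.8 to 36.7 CPM in the excitatory libraries (log2 fold change 1.43, SE 0.05, adjusted p = 7.05e-22 by edgeR). Its level in CamK hippocampus, 101 ± 9.65 CPM (SD, n = 4), was above both cortical excitatory groups. GSMG0037120 had a log2 fold change of 1.35 (SE 0.09, adjusted p = 5.83e-15 by edgeR).

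The members also differed within each cortical class. Scnn was higher than CamK for 26 members (14.3%) and lower for 55 (30.2%), against 13.7% and 5.94% of all features. The medians were -0.31 and -0.01, and 52 of 103 members (50.5%) at 1 CPM or more were called, against 16.1%. GSMG0019061 read 0.369, 0.477, 0.424 and 0.430 CPM in Scnn and 3.19, 2.78, 3.68 and 3.12 CPM in CamK cortex (log2 fold change -3.01, SE 0.31, adjusted p = 2.33e-09 by edgeR). GSMG0036659 read 2.20, 3.15, 2.33 and 2.54 CPM in Scnn and 0.134, 0.332, 0.308 and 0.161 CPM in CamK cortex, without overlap (log2 fold change 3.37, SE 0.43, adjusted p = 2.09e-07 by edgeR). GSMG0020087 was higher in Scnn by 3.30 (SE 0.23, adjusted p = 7.59e-13 by edgeR), and GSMG0011861 had a log2 fold change of -2.80 (SE 0.28, adjusted p = 1.48e-09 by edgeR).

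PV was higher than SST cortex for 14 members (7.69%) and lower for 46 (25.3%), against 6.08% and 9.08% of all features. The medians were -0.37 and 0.04, and 38 of 77 members (49.4%) at 1 CPM or more were called, against 17.2%. GSMG0015160 read 0.275, 0.295, 0.145 and 0.248 CPM in PV and 3.86, 3.68, 2.87 and 3.13 CPM in SST cortex (log2 fold change -3.77, SE 0.35, adjusted p = 1.67e-10 by edgeR). This feature was thus higher in SST than in PV cortex, and higher in SST than in CamK hippocampus. Its CamK cortex libraries read 1.74 to 2.34 CPM and its Scnn cortex libraries 0.649 to 2.70 CPM. SST cortex was not tested against those groups, and the feature was highest in Grik. GSMG0015159 was likewise lower in PV than in SST cortex, with a log2 fold change of -4.19 (SE 0.40, adjusted p = 2.19e-10 by edgeR). GSMG0013946 read 7.27, 5.45, 6.05 and 4.91 CPM in PV and 1.09, 0.685, 0.971 and 0.517 CPM in SST cortex, every PV library being higher (log2 fold change 2.91, SE 0.21, adjusted p = 5.93e-13 by edgeR). GSMG0016942 was higher in PV by 2.76 (SE 0.24, adjusted p = 3.02e-11 by edgeR).

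Among the cortical interneurons, VIP held the members at the highest level. Against the mean of PV and SST cortex, 92 members (50.5%) were higher in VIP and 7 (3.85%) lower, while all features also leaned to VIP, with 22.6% higher and 6.14% lower. The median log2 fold change was 1.19 for members and 0.15 for all features. Of the 109 members at 1 CPM or more, 63 (57.8%) were called, against 25.5%. VIP is the only cortical group of the W series, so population and title series cannot be told apart here, and the scaling factors of VIP libraries averaged 1.19 against 0.912 in Grik. GSMG0003756 read 3.38, 3.01, 2.11 and 2.14 CPM in VIP and at most 0.106 CPM in the 8 PV and SST libraries, with a log2 fold change of 5.81 (SE 0.30, adjusted p = 8.24e-17 by edgeR). It was at 0 in PV replicate 2, so the size of this fold is uncertain. GSMG0014537 read 1.496, 1.37, 0.791 and 0.659 CPM in VIP cortex. It was at 0 in all SST cortex libraries and in 3 of 4 PV libraries, so no fold is given, and its edgeR adjusted p was 5.09e-12. GSMG0018596 was lower in VIP, at 4.99, 6.77, 8.43 and 4.27 CPM against 12.2 to 33.1 CPM in the PV and SST libraries (log2 fold change -1.995, SE 0.12, adjusted p = 5.9e-15 by edgeR). GSMG0022351 had a log2 fold change of -1.63 (SE 0.08, adjusted p = 7.15e-18 by edgeR).

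**Figure D5:**
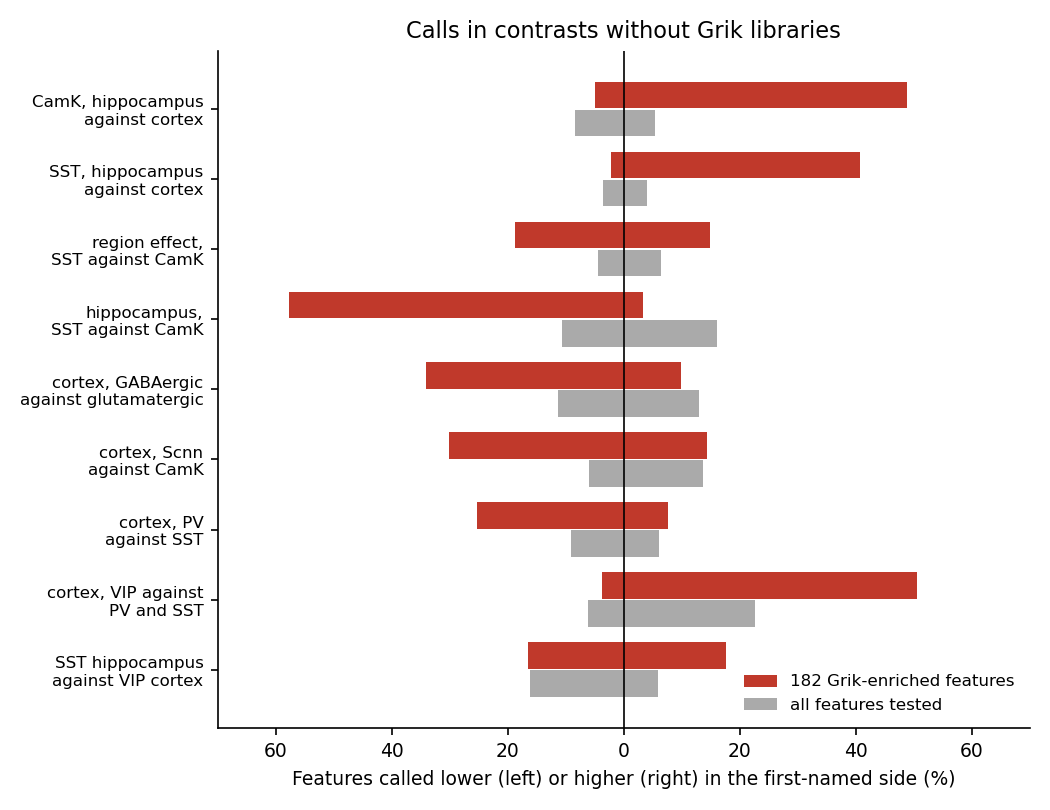
Percent of the 182 members (red) and of all 24555 features tested (grey) called lower (left of 0) or higher (right of 0) in the first-named side of each contrast, by edgeR at an adjusted p below 0.05 and a change of 2-fold or more. Members are called mostly higher in the hippocampus (48.9% in CamK, 40.7% in SST) and in VIP cortex (50.5%), and mostly lower in SST than in CamK hippocampus (57.7%).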

How the data were processed

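Per the labels' protocols, purification used the RNeasy Plus Micro kit, and 50 ng of RNA per library entered a stranded TruSeq preparation with poly(A) selection. The submitters' processing notes name GRCm38, FastQC, Picard, SAMtools and featureCounts, with no role or version. For the aligner, annotation and use of strand in counting, the sources used here give nothing, so overlapping, antisense and near-identical features have uncertain values. As deposited, the values are expected counts, of which 20.1% of those above 0 were whole within 1e-06. The deposited table also holds 12 columns that match no sample and were not used. No identifier occurred in the reference tables, so no names or sequences are given.

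Members were found from CPM over column totals with pandas 2.3.3. For the contrasts, rounded counts were fitted in edgeR 4.0.16 (R 4.3.3) with filterByExpr, TMM and a robust quasi-likelihood model of all 8 groups (24 residual degrees of freedom, common biological coefficient of variation 0.253). A standard error is the log2 fold change over the square root of F. The code was tested on simulated data. DESeq2 1.42.0, relative log expression scaling, other filters, a replicate block and leaving out libraries were alternatives. Levels are CPM without TMM. The members and lists were chosen with earlier results of these data known. Named were the 2 members with the largest ratio at 5 CPM or more and the 2 most abundant. For each contrast, up to 2 called members with the largest change each way were also named. These had a mean of 1 CPM or more in at least 1 group of the higher side. The libraries of the 2 sides did not overlap, which was not required for the interaction. Other features were not named.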

Additional observations from a re-analysis of the deposited data

Results flagged for a closer look

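The named members and the members' summed share were looked at in 248 groups of 4 libraries, and in 20 of them the highest or lowest library stood apart from the rest by Dixon's criterion, the gap to the nearest library over the group's range. Chance alone does so in about 1 of 20 groups. PV cortex replicate 1 was the library in 5 of the 20. It read 183 CPM for GSMG0026199 (others 75.5 to 85.8), 5.73 CPM for GSMG0000014 (others 1.02 to 1.73), 69.3 CPM for GSMG0012470 (others 61.2 to 62.4) and 0.019 CPM for GSMG0007480 (others 0). The members' share of its counts was 0.122% (others 0.0936% to 0.0963%).

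In Grik hippocampus, replicate 3 read 25.9 CPM for GSMG0001554 (others 20.5 to 21.3) and replicate 5 read 3.73 CPM for GSMG0007480 (others 2.73 to 2.90). In CamK hippocampus, replicate 4 read 3.20 CPM for GSMG0003756 (others 5.62 to 5.93) and 0.366 CPM for GSMG0036659 (others 1.42 to 1.49), and replicate 3 read 2.77 CPM for GSMG0020087 (others 3.46 to 3.59). In Scnn cortex, replicate 2 read 2.79 CPM for GSMG0037378 (others 1.04 to 1.21), 2.08 CPM for GSMG0005945 (others 0.845 to 1.02) and 0.019 CPM for GSMG0014537 (others 0). Scnn replicate 3 read 0.230 CPM for GSMG0011861 (others 0.117 to 0.131) and 0.275 CPM for GSMG0016942 (others 0.560 to 0.571). In CamK cortex, replicate 1 read 1.59 CPM for GSMG0037292 (others 1.02 to 1.07) and replicate 3 read 0.019 CPM for GSMG0014537 (others 0). VIP cortex replicate 3 read 7.97 CPM for GSMG0000014 (others 11.1 to 11.5). PV cortex replicate 4 read 0.460 CPM for GSMG0016259 (others 0.163 to 0.185), and PV replicate 2 read 0.0252 CPM for GSMG0014537 (others 0).

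By edgeR's interaction test, the regional log2 fold change in SST minus that in CamK was 3.14 for GSMG0016259, 3.0 for GSMG0007834, -4.63 for GSMG0037379 and -4.42 for GSMG0037378, each with an adjusted p given above.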

How the results depend on the processing

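The number of members moved with the rule, to 87 at a 3-fold ratio, 358 at a 1.5-fold ratio and 116 at a minimum of 5 CPM. With TMM library sizes 234 features passed, among them all 182. Leaving out each library in turn gave 169 to 196 members, the lowest without CamK hippocampus replicate 4. Called members ranged over the same exercise from 90 to 97 for the CamK region contrast, 66 to 71 for SST region, 56 to 64 for the interaction, 104 to 114 for SST against CamK hippocampus, 76 to 82 for interneurons against excitatory cortex, 69 to 76 for Scnn against CamK, 55 to 64 for PV against SST and 92 to 108 for VIP. Without the fold threshold, interneurons against excitatory cortex had 124 called members (27 higher, 97 lower). Of 544 recomputed values of named members none reversed and 1 lost its call (GSMG0005945, above). The title numbers were not taken to pair the libraries, since in no pair of groups did every same-numbered pair correlate above 0.1 (-0.0562 to 0.123 over 40 pairs, 4 above 0.1). The own number correlated best in 18 of the 40, where 10 would do so if numbers had no bearing, and in 14 of the 24 among plain titles, where 6 would. That is a hint of shared variation from the data, not the design. With the replicate block, called members were 94 for CamK region, 69 for SST region, 62 for the interaction, 110 for SST against CamK hippocampus, 79 for interneurons against excitatory cortex, 76 for Scnn against CamK, 60 for PV against SST and 95 for VIP. The median of all features in the VIP contrast was 0.15 in the report, 0.22 with relative log expression scaling, 0.34 without a filter on low counts and 0.01 at a filter of 1 CPM, while the members' median lay between 1.18 and 1.27. Counting error bears most on members near 0 in a group. In a group whose libraries are all at 0, as for 8 members, up to 3 counts over the group remain possible.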

Other observations

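Among the 182 members were 10 pairs with consecutive identifier numbers, made up of 19 members. Over the 28 libraries outside Grik, which the rule used only through group means, log2(CPM + 0.1) of the members of a pair correlated at Pearson's r of 0.557 to 0.988 with a median of 0.919, and 8 pairs were over 0.8. The libraries of a group share their population, so these correlations are a description and have no p. The pairs include GSMG0037378 with GSMG0037379, GSMG0016259 with GSMG0016260 and GSMG0015159 with GSMG0015160, whose values are given above, and they were singled out after their values were seen. What the order of identifiers means, and whether such features overlap or share reads, was not tested.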
